A study of Mus musculus with 11 samples.

Results

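The expression of 10 genes that serve as markers of fetal and adult Leydig cells was examined in MLTC-1 cells, an established mouse Leydig tumor cell line (MLTCs), after transfection of siRNAs against *Mamld1*. The 10 genes were *Insl3*, *Sult1e1*, *Ptgds*, *Vcam1*, *Srd5a1*, *Akr1c14*, *Prlr*, *Pdgfra*, *Ptch1* and *Thbs2*. They were taken from a list of names, and all probes whose transcript accession was assigned to one of these symbols were kept, which gave 12 of the 41174 probes of a single-color mouse array. *Vcam1* and *Pdgfra* each had 2 probes, and the other genes had 1 probe each. MLTCs received 20 nM of non-targeting control RNA (4611G), of siRNA1 or of siRNA2, each siRNA being directed against *Mamld1*, and per the labels total RNA was taken 48 h later. The study's methods add that human chorionic gonadotropin (hCG), which acts on the luteinizing hormone receptor, was given to the transfected cells after the 48 h and that the RNA came from cells harvested when steroids were measured, after hCG, so that all groups may share this stimulation. The transfection was transient and with Lipofectamine RNAiMAX in all groups, and the labels give the same cell line and medium for all of them. There were 4 arrays for non-targeted MLTCs, 4 for siRNA1-transfected MLTCs and 3 for siRNA2-transfected MLTCs. The labels call the arrays replicates without naming separate cultures, so that p-values measure the spread between these samples, which may be technical.

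Leydig cells of the testis produce androgens under the control of luteinizing hormone, and they arise in separate fetal and adult generations. The fetal cells make INSL3 and androstenedione and rest on hedgehog and PDGF signals from neighboring Sertoli cells, which act on the receptors Ptch1 and Pdgfra of the Leydig lineage. The adult cells develop after birth from precursors that carry Pdgfra, pass through a stage that reduces testosterone by Srd5a1 and Akr1c14, and when mature express *Insl3*, *Ptgds*, *Sult1e1*, *Vcam1* and *Prlr*. *Thbs2* has been used as a marker of the fetal generation.

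Signals are given here as the percent of the 75th percentile of all non-control spots on the same array, called scaled signal. This percentile was 470 to 582 signal units in non-targeted MLTCs, 601 to 774 in siRNA1-transfected MLTCs and 488 to 579 in siRNA2-transfected MLTCs, and 58.6 to 62.6% of the spots of an array were well above background. No spot was flagged as saturated on any array. Scaled signals differ between probes for technical reasons, so that a level is compared only with levels of the same probe. The 11 arrays lay on 3 slides, and each slide held arrays of all 3 groups. The smallest two-sided p-value that the exact permutation test over arrays can give is 0.0286, for 4 against 4 and for 4 against 3 arrays. Since whole-culture RNA was measured, fewer cells with a transcript and less transcript per cell cannot be told apart.

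The targeted gene was examined first. The scaled signal of *Mamld1* was 5.55 ± 0.936 (SD, n = 4) in non-targeted MLTCs. It was 2.96 ± 0.847 (SD, n = 4) after siRNA1 and 3.28 ± 0.693 (SD, n = 3) after siRNA2. It was lower than control on each siRNA array, with a log2 fold change of -0.93 (adjusted p = 0.0057, limma) for siRNA1 and -0.77 (adjusted p = 0.0309, limma) for siRNA2, and the difference between the siRNAs was -0.16 (95% CI -0.64 to 0.31). The probe was dim. Its signals before scaling were 22.0 to 38.1 units in control, 14.8 to 25.4 with siRNA1 and 14.3 to 21.8 with siRNA2. The lowest signal well above background was 6.94 to 8.90 on these arrays. Apart from the slide block, the alternatives given below were not examined for *Mamld1*. The identity of the cells was checked with markers of steroidogenic cells, of which 9 of 9 probes were well above background on all 11 arrays. Of the other testis cell types, *Sox9* and *Dmrt1* of Sertoli cells, *Adgre1* of macrophages and *Kdr* and *Tek* of endothelial cells were not well above background on any array. Of the 7 macrophage probes 0 were above background on all 11 arrays. However, *Csf1r* of this list was above background on up to 3 of the 4 control arrays, and *Cd68* had no probe. *Itgam* of macrophages and *Pecam1* of endothelial cells were above background on some siRNA arrays only. The other tested Sertoli cell markers, *Amh*, *Gata1* and *Rhox5*, were above background on all 11 arrays, and of these 3 probes 0 were higher and 1 (*Rhox5*, log2 fold change -0.58, adjusted p = 0.00767, limma) was lower with siRNA1, while none passed with siRNA2. The summed scaled signal of the 8 Sertoli probes was 235 to 264 in non-targeted, 238 to 281 in siRNA1-transfected and 249 to 261 in siRNA2-transfected MLTCs. The endothelial cadherin *Cdh5* was above background on all arrays and was higher with both siRNAs (log2 fold change 1.22, adjusted p = 2.1e-05 for siRNA1 and 0.84, adjusted p = 0.000652 for siRNA2, by its brighter probe). The summed scaled signal of the 5 endothelial probes was 80.5 to 88.2 in non-targeted, 161 to 218 in siRNA1-transfected and 141 to 170.5 in siRNA2-transfected MLTCs. Nearly all of this sum was the signal of *Cdh5*, since the group means of *Tek*, *Kdr* and *Pecam1* were 0.324 to 1.27. The rise of the sum is thus that of 1 gene. Its part in the results on *Vcam1* and *Pdgfra*, which endothelial or mesenchymal cells can also express, was not tested. Of the germ cell probes 4 of 8, and of the peritubular myoid probes 3 of 6, were well above background on all 11 arrays. Of the germ cell markers 0 of 5 tested probes were higher and 1 (*Ddx4*) was lower with siRNA1. Of the peritubular myoid markers 0 of 4 were higher and 2 (*Des* and 1 probe of *Acta2*) were lower with siRNA1. With siRNA2 none of either list passed the test. Over all tested probes 11.8% were higher and 15.2% lower with siRNA1.

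*Sult1e1* was the one member that fell with both siRNAs, a direction that turned under normexp, an alternative background correction. *Prlr* rose with siRNA1, and *Pdgfra* and *Srd5a1* rose while *Vcam1*, by 1 of its 2 probes, fell with siRNA2. The *Srd5a1* call passed under 10 of 22 alternative settings, and each of the other calls under 21. None of these calls, nor that of *Sult1e1*, passed under normexp, whereas all of them passed with normexp after a few extreme local backgrounds were replaced. *Insl3*, *Ptch1*, *Akr1c14* and *Ptgds* did not pass the test with either siRNA, and *Thbs2* was not well above background on any array. A probe was tested if all arrays of some group had it well above background, which held for 10 of the 12 probes and for 24248 probes in total. The filter left out the probe of *Thbs2* and the dimmer probe of *Pdgfra*.

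**Figure D1:**
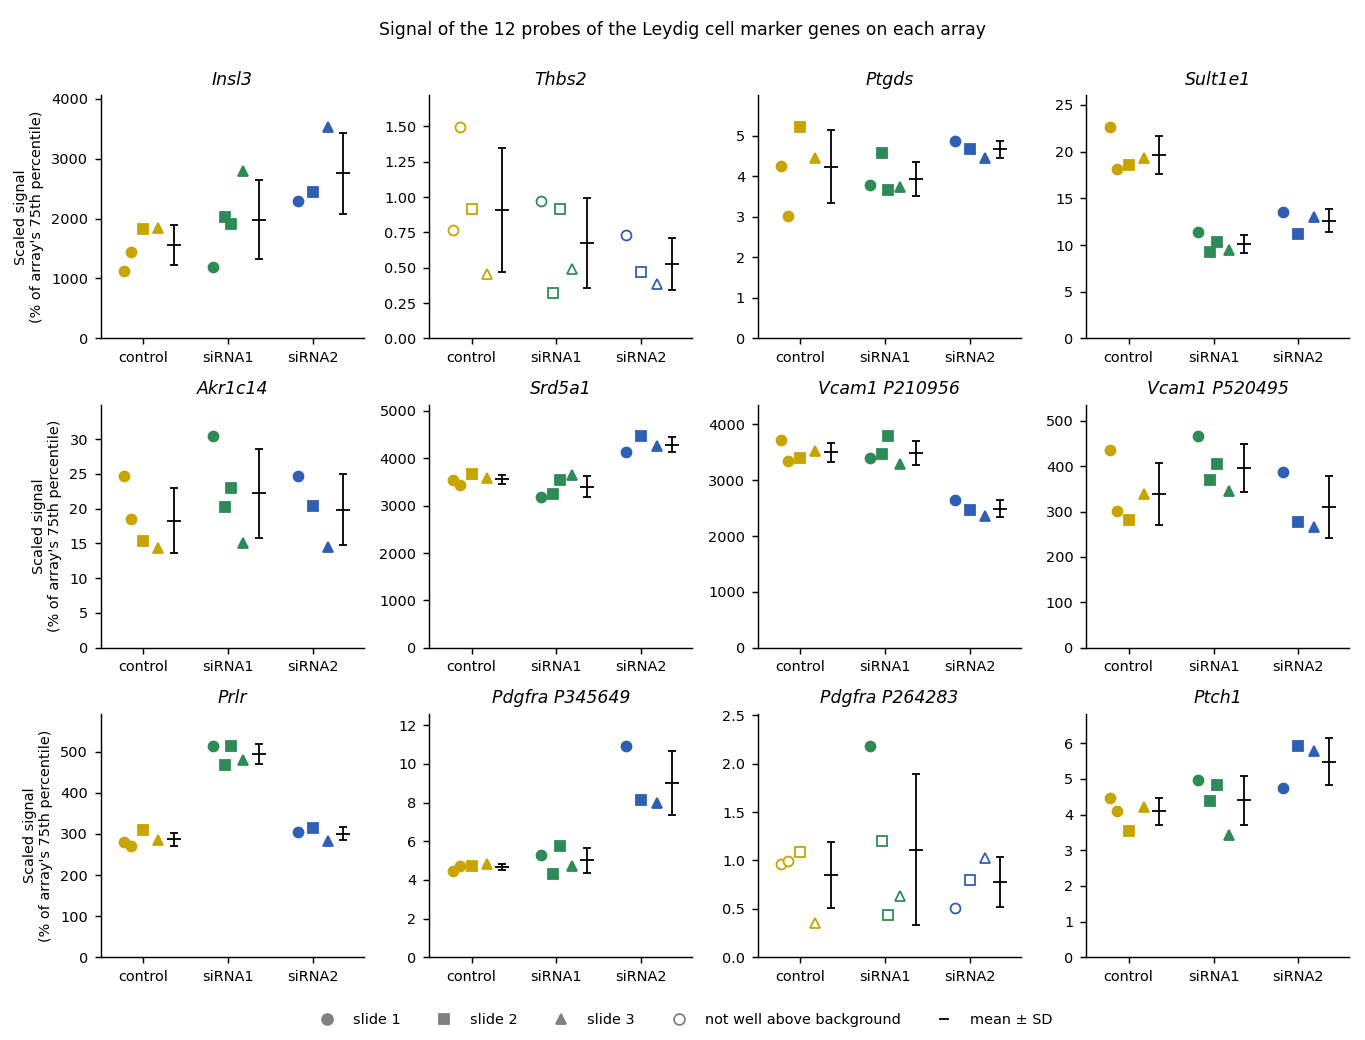
Scaled signal (percent of the array's 75th percentile, linear axis from 0) of each of the 12 probes on each of the 11 arrays, by group. Marker shape gives the slide, open markers were not well above background, and bars give mean ± SD. *Sult1e1* lies lower in both siRNA groups, *Prlr* is higher with siRNA1 (468 to 515 against 271 to 309.9 in control), and the probe of *Pdgfra* ending in P345649 is higher with siRNA2 (8.0 to 10.9 against 4.44 to 4.83 in control).

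The promoters of *Insl3* and *Sult1e1* are printed because *Sult1e1* was the member that fell with both siRNAs and because the *Insl3* promoter is the textbook target of NR5A1 (SF-1), the nuclear receptor that drives Leydig cell genes and binds half-sites with the core AAGGTC. The 250 bases before the start were read from RefSeq (GRCm38.p6) in the direction of the gene, and capitals mark AAGGTC or its reverse complement GACCTT. The *Insl3* window lies at chr8:71689002-71689251 on the plus strand and the *Sult1e1* window at chr5:87591612-87591861 on the minus strand.
Insl3: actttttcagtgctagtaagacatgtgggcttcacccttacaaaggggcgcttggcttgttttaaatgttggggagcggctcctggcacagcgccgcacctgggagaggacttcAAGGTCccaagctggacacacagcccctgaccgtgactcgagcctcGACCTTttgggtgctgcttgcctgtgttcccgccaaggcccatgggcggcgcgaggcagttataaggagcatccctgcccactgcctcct
Sult1e1: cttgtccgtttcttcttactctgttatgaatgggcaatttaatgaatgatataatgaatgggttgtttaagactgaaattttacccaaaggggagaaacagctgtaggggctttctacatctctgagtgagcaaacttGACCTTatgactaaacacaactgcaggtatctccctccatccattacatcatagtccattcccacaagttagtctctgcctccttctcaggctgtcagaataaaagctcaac
The *Insl3* window held 2 matches, 136 to 131 and 90 to 85 bases before the start, and the *Sult1e1* window held 1 match, 112 to 107 bases before the start, which was also the only match of the longer motif AAGGTCA among the members, searched like the shorter one on both strands. *Ptgds* had 1 match, 231 to 226 bases before its start. Windows were found for 9 of the 10 genes, all but *Vcam1*, 11 windows in all. Of these 11 windows 3, each of a different gene, held AAGGTC on either strand. Of all 32851 windows of this length, 10.6% held AAGGTC and 4.08% held AAGGTCA. A match is a run of letters and not a shown binding site.

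*Insl3* encodes the insulin-like hormone by which Leydig cells drive the descent of the testis, and it is used as a measure of Leydig cell maturity. Its scaled signal in non-targeted MLTCs was 1132, 1435, 1829 and 1840.4 on arrays 1 to 4. The siRNA1-transfected MLTCs gave 1188, 2027, 1907 and 2801, and the siRNA2-transfected MLTCs gave 2296, 2441 and 3529.7. The siRNA2 arrays all lay above the control arrays, whereas the siRNA1 arrays overlapped with both other groups. With siRNA2 the log2 fold change was 0.82 ± 0.28 (SE, 95% CI 0.22 to 1.43), and this did not pass the test across all probes (adjusted p = 0.0613, limma; exact permutation p = 0.0286). With siRNA1 it was 0.31 ± 0.25 (SE, 95% CI -0.25 to 0.87, adjusted p = 0.412, limma).

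The spread of *Insl3* within the groups followed the slides. After the group means were removed, its log2 signal was -0.36 on slide 1, 0.05 on slide 2 and 0.41 on slide 3, and the slide term of the fit passed the test (adjusted p = 0.0421, limma), as it did for 7.9% of all tested probes. With the slide as a block the log2 fold change with siRNA2 was 0.72 and passed the test (adjusted p = 0.00865, limma), and within slides 1, 2 and 3 it was 0.85, 0.42 and 0.94. The difference between siRNA1 and siRNA2 was -0.51 (95% CI -1.12 to 0.09, adjusted p = 0.211) without the block and -0.52 (adjusted p = 0.0293, limma) with it. For siRNA1 the value with the block was 0.20 (adjusted p = 0.316), and within the slides it was -0.10, 0.10 and 0.61. Over 22 alternatives *Insl3* was higher with siRNA2 in each and passed the test in 7.

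*Sult1e1*, an adult Leydig cell marker, encodes the sulfotransferase that inactivates estrogens. Its scaled signal was 22.6, 18.2, 18.5 and 19.3 in non-targeted MLTCs. It was 11.4, 9.21, 10.3 and 9.47 in siRNA1-transfected MLTCs and 13.6, 11.2 and 13.0 in siRNA2-transfected MLTCs. Every siRNA array lay below every control array, and the siRNA groups overlapped with each other. This gave a log2 fold change of -0.96 ± 0.11 (SE, adjusted p = 7.73e-05, limma) with siRNA1 and -0.64 ± 0.11 (SE, adjusted p = 0.00254, limma) with siRNA2. Within slides 1, 2 and 3 it was -0.83, -0.93 and -1.03 with siRNA1 and -0.58, -0.72 and -0.57 with siRNA2. With the slide as a block the values were -0.91 (adjusted p = 0.000136) and -0.62 (adjusted p = 0.00195). The siRNA1 signal was lower than the siRNA2 signal by a log2 difference of -0.32 (95% CI -0.57 to -0.07), which missed the threshold without the block (adjusted p = 0.0652, limma) and passed it with the block (-0.30, adjusted p = 0.044). Under normexp on the spot and local background signals the direction with both siRNAs turned (0.30, adjusted p = 0.668 and 0.19, adjusted p = 0.848), whereas with a few extreme local backgrounds replaced by the array's median it was again lower (-0.60, adjusted p = 7.02e-05 and -0.34, adjusted p = 0.0127).

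*Ptgds*, the lipocalin-type synthase of prostaglandin D2, is an adult Leydig cell marker. Its probe was dim but well above background on all 11 arrays. The scaled signal was 4.26, 3.03, 5.22 and 4.46 in non-targeted, 3.79, 4.57, 3.65 and 3.73 in siRNA1-transfected and 4.88, 4.68 and 4.45 in siRNA2-transfected MLTCs. The 3 groups overlapped. Relative to control, the log2 fold change was -0.087 (95% CI -0.41 to 0.24) with siRNA1 and 0.17 (95% CI -0.19 to 0.52) with siRNA2, so that a change beyond these intervals was not seen, but a smaller one cannot be told from none at this signal.

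*Vcam1* encodes a cell adhesion molecule that binds integrins and marks adult Leydig cells. By the brighter of its 2 probes (A_51_P210956) the scaled signal was 3727, 3352, 3398 and 3523 in non-targeted MLTCs and 3392, 3465, 3785 and 3282 in siRNA1-transfected MLTCs. It was 2651, 2464 and 2361 in siRNA2-transfected MLTCs. All siRNA2 arrays lay below all other arrays. This fall with siRNA2 had a log2 fold change of -0.49 ± 0.084 (SE, adjusted p = 0.00207, limma), which within the slides was -0.41, -0.46 and -0.58 (-0.48, adjusted p = 0.00222 with the slide as a block). With siRNA1 it was -0.0086 (95% CI -0.18 to 0.16), and the sign of this small value turned under quantile normalization (0.074) and median scaling (0.034).

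The second probe of *Vcam1* (A_52_P520495) did not show this fall beyond its spread. Its scaled signal was 434, 300.4, 282 and 339 in non-targeted, 465, 369, 404 and 346 in siRNA1-transfected and 387, 276 and 265 in siRNA2-transfected MLTCs. The log2 fold change with siRNA2 was -0.13 ± 0.18 (SE, 95% CI -0.52 to 0.26, adjusted p = 0.694), an interval that also holds the value of the first probe. With siRNA1 it was 0.24 (95% CI -0.13 to 0.60, adjusted p = 0.326). The call on *Vcam1* thus comes from 1 of 2 probes. The probes' sequences and positions in the transcript were not used here.

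*Srd5a1* encodes steroid 5α-reductase type 1, which converts testosterone to dihydrotestosterone and marks immature Leydig cells. Its scaled signal was 3533, 3440.3, 3663 and 3585 in non-targeted MLTCs, and 3179, 3252, 3531 and 3643 in siRNA1-transfected MLTCs. It was 4141, 4460.4 and 4258 in siRNA2-transfected MLTCs. All siRNA2 arrays were higher than all others, while the siRNA1 and control arrays overlapped. The rise with siRNA2 was small, a log2 fold change of 0.27 ± 0.079 (SE, adjusted p = 0.0357, limma), and within the slides it was 0.25, 0.28 and 0.25 (0.26, adjusted p = 0.0235 with the slide as a block). This call was lost when any control or siRNA2 array or siRNA1 array 3 was left out (adjusted p = 0.0506 to 0.14), under median scaling (adjusted p = 0.17), without the filter on dim probes (adjusted p = 0.0831) and when siRNA2 and control were fitted alone (adjusted p = 0.0666), although the value stayed between 0.24 and 0.29 under these. Under normexp it was 0.079 (adjusted p = 0.866). With siRNA1 it was -0.066 (95% CI -0.23 to 0.10, adjusted p = 0.552), and this sign turned under quantile normalization (0.023).

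*Akr1c14* encodes the 3α-hydroxysteroid dehydrogenase that acts on dihydrotestosterone after Srd5a1. The scaled signal was 24.8, 18.5, 15.3 and 14.4 in non-targeted MLTCs. In siRNA1-transfected MLTCs it was 30.4, 20.3, 23.0 and 15.1, and in siRNA2-transfected MLTCs 24.7, 20.4 and 14.5. The 3 groups overlapped widely, and the arrays of slide 1 gave the highest and those of slide 3 the lowest value in each group. After removal of the group means the log2 signal was 0.34 on slide 1, -0.04 on slide 2 and -0.41 on slide 3 (slide term, adjusted p = 0.0317, limma), the reverse order of *Insl3*. The log2 fold change was 0.27 ± 0.24 (SE, adjusted p = 0.449, limma) with siRNA1 and 0.12 ± 0.26 (SE, adjusted p = 0.823, limma) with siRNA2. With the slide as a block the siRNA1 value was 0.37 and passed the test (adjusted p = 0.0388), and within the slides it was 0.51, 0.50 and 0.07. With siRNA2 it was 0.22 with the block (adjusted p = 0.25) and 0.21, 0.41 and 0.01 within the slides. *Akr1c14* belongs to a family of closely related genes, and whether its probe also reads another member was not tested. For the other members the adjusted p of the slide term was 0.166 to 0.834.

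**Figure D2:**
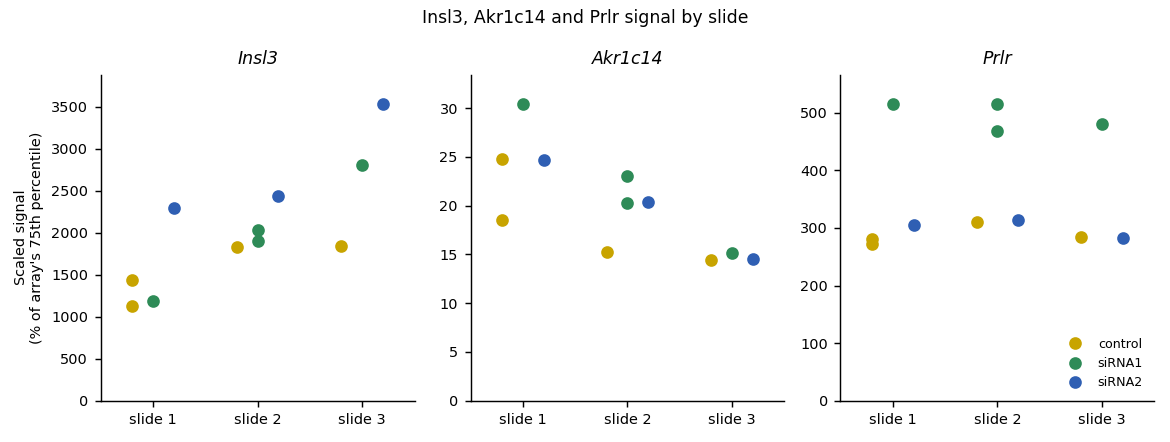
Scaled signal (percent of the array's 75th percentile, linear axis from 0) of *Insl3*, *Akr1c14* and *Prlr* on each array, by slide and group (1 point per array). *Insl3* is lowest on slide 1 and *Akr1c14* highest there in each group, while the *Prlr* arrays of siRNA1 (468 to 515) lie above the others on each slide.

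*Prlr* encodes the receptor for prolactin, which in adult Leydig cells raises the number of luteinizing hormone receptors. The scaled signal was 281, 271, 309.9 and 285 in non-targeted MLTCs and 305, 314 and 282 in siRNA2-transfected MLTCs. In siRNA1-transfected MLTCs it was 515, 468, 514 and 481. The siRNA1 arrays were clear of both other groups, which overlapped. The log2 fold change with siRNA1 was 0.79 ± 0.076 (SE, adjusted p = 3.38e-05, limma), and within slides 1, 2 and 3 it was 0.90, 0.66 and 0.76 (0.78, adjusted p = 8.21e-05 with the slide as a block). With siRNA2 it was 0.068 (95% CI -0.11 to 0.25, adjusted p = 0.661), and the difference between the siRNAs was 0.72 (95% CI 0.54 to 0.90, adjusted p = 0.000114, limma). Which of the *Prlr* isoforms the probe reads was not examined.

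*Pdgfra* encodes the receptor for platelet-derived growth factor A that marks Leydig cell precursors. Its brighter probe (A_51_P345649), spotted 10 times per array, gave 4.44, 4.71, 4.72 and 4.83 in non-targeted MLTCs and 5.29, 4.31, 5.73 and 4.70 in siRNA1-transfected MLTCs. It gave 10.9, 8.11 and 8.0 in siRNA2-transfected MLTCs, above all other arrays. The log2 fold change with siRNA2 was 0.93 ± 0.13 (SE, adjusted p = 0.000568, limma), and within the slides it was 1.26, 0.78 and 0.73 (0.96, adjusted p = 0.000897 with the slide as a block). With normexp and the extreme local backgrounds replaced it was smaller, 0.32 (adjusted p = 0.0112), and the difference between the siRNAs was -0.43 (adjusted p = 0.00114) instead of -0.84. The raw signals behind these values were 39.0 to 62.8 units with siRNA2 and 22.1 to 27.4 in control, on arrays whose lowest signal well above background was 6.94 to 8.90. With siRNA1 the log2 fold change was 0.092 (95% CI -0.17 to 0.36, adjusted p = 0.619). The other probe (A_52_P264283) was well above background on 1 of the 4 siRNA1 arrays and on none of the others, and was not tested.

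*Ptch1* encodes the hedgehog receptor that is also a target gene of the pathway. Its probe, spotted 10 times per array, gave 4.48, 4.10, 3.55 and 4.22 in non-targeted and 4.96, 4.37, 4.82 and 3.43 in siRNA1-transfected MLTCs. The siRNA2-transfected MLTCs gave 4.74, 5.93 and 5.79, above all control arrays but not all siRNA1 arrays. The log2 fold change with siRNA2 was 0.42 ± 0.14 (SE, 95% CI 0.11 to 0.74) and missed the threshold (adjusted p = 0.0624, limma; exact permutation p = 0.0286). It was 0.43 (adjusted p = 0.0642) with the slide as a block and 0.15, 0.74 and 0.46 within the slides. With siRNA1 it was 0.097 (95% CI -0.19 to 0.39, adjusted p = 0.634).

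*Thbs2*, encoding the matricellular protein thrombospondin 2, was not well above background on any of the 11 arrays. Its scaled signal was 0.765, 1.5, 0.918 and 0.453 in non-targeted, 0.974, 0.321, 0.915 and 0.491 in siRNA1-transfected and 0.734, 0.467 and 0.381 in siRNA2-transfected MLTCs. These values were 1.86 to 7.08 signal units before scaling, and no fold change is given for them. The member used as a marker of the fetal generation was therefore not detected above background, while the members used as adult markers were above background on all 11 arrays. This contrast rests on 1 probe of *Thbs2*. Of the 7 probes of the fetal Leydig cell list, 3 were above background on all 11 arrays, those of *Mc2r*, *Crhr1* and *Dlk1*. Whether the line is of the fetal or the adult kind was not tested.

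Counted over the 10 tested probes, 2 passed the test with siRNA1 (1 higher and 1 lower), against 27% of all tested probes, 11.8% higher and 15.2% lower. With siRNA2, 4 passed (2 higher and 2 lower), against 18.4% of all probes, 7.7% higher and 10.7% lower. Between siRNA1 and siRNA2, 4 differed (2 higher and 2 lower with siRNA1), against 23.5% of all probes, 11.7% higher and 11.8% lower. The shares of the members lay on either side of the shares of all probes, and with 10 probes they are no result about the members. No member reached a 2-fold change with an adjusted p under the threshold of limma, where 2.99, 2.25 and 3.36% of all probes did in the 3 comparisons, while 2, 6 and 6 member probes had an unadjusted p under 0.05, as did 38.3, 30.5 and 35.2% of all tested probes. The nearest to 2-fold was *Sult1e1* with siRNA1 at 0.514 of control. The median log2 fold change of the tested members was 0.09 with siRNA1 and 0.14 with siRNA2, beside -0.048 and -0.008 over all tested probes. With normexp 0 member probes passed in each of the 3 comparisons, and with the extreme local backgrounds replaced 2, 5 and 5 passed. Groups did not overlap for 2 member probes with siRNA1, 6 with siRNA2 and 4 between the siRNAs, beside 29.1, 28.1 and 31.3% of all tested probes, and with 10 probes nothing is read from these counts.

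**Figure D3:**
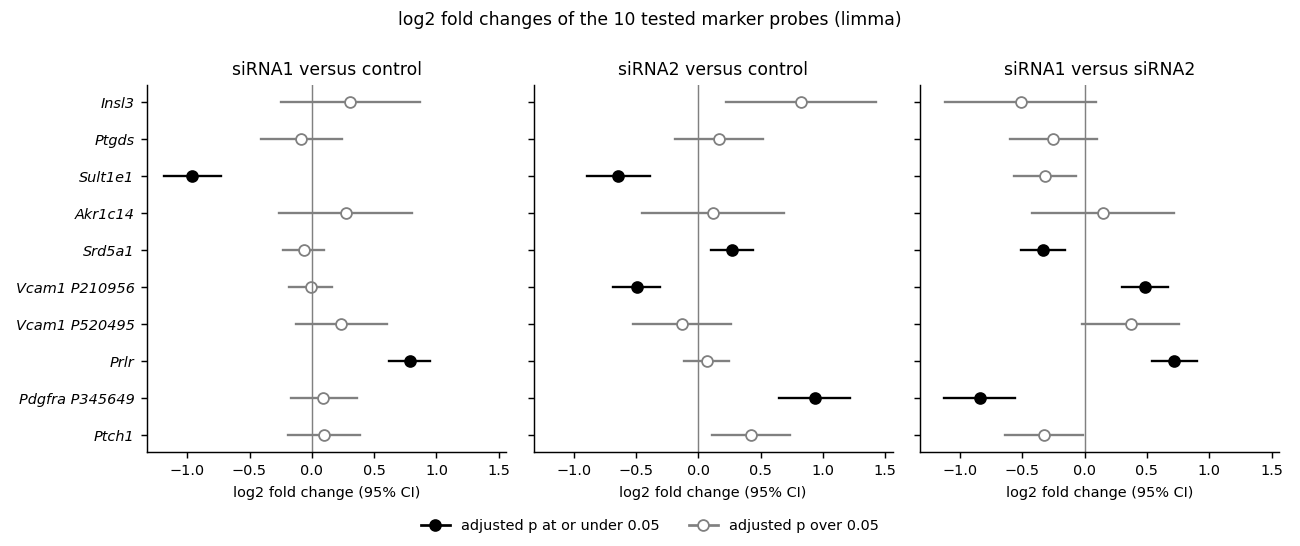
log2 fold change (x axis, point) with its 95% CI (line) of the 10 tested probes for siRNA1 against control, siRNA2 against control and siRNA1 against siRNA2. Black points passed the test: *Sult1e1* and *Prlr* with siRNA1; *Sult1e1*, *Srd5a1*, *Vcam1* (1 of 2 probes) and *Pdgfra* with siRNA2; and the last 3 and *Prlr* between the siRNAs.

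The siRNAs were then compared with each other, since passing the test with only 1 of them does not by itself show a difference between them. *Prlr* and the brighter *Vcam1* probe were higher with siRNA1 than with siRNA2 (log2 difference 0.72, and 0.48 with adjusted p = 0.00174, limma). *Pdgfra* and *Srd5a1* were lower (-0.84, adjusted p = 0.000809, and -0.34, adjusted p = 0.01, limma). Within the slides these differences kept their sign, at 0.64 to 0.77 for *Prlr*, 0.36 to 0.56 for *Vcam1*, -1.05 to -0.71 for *Pdgfra* and -0.40 to -0.23 for *Srd5a1*. For *Ptch1* the difference was -0.33 (95% CI -0.64 to -0.01, adjusted p = 0.126), for *Ptgds* -0.25 (95% CI -0.60 to 0.10) and for *Akr1c14* 0.15 (95% CI -0.42 to 0.72). Both comparisons with control share the control arrays, so that their values stand side by side only.

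The members were set among other genes of their pathways, in lists that were chosen with earlier results of these data known. Over all tested probes 11.8% were higher and 15.2% lower with siRNA1, and 7.7% higher and 10.7% lower with siRNA2. These shares stand beside the list counts below, and with few probes per list nothing is read from those counts. Other markers of fetal Leydig cells were measured: the corticotropin receptor gene *Mc2r*, the corticotropin-releasing hormone receptor gene *Crhr1* and *Dlk1* each had a probe above background on all arrays. Of 3 tested probes of this list 1 was lower with siRNA1 and 1 was higher with siRNA2. *Crhr1* was 10.3 ± 1.32 (SD, n = 4) in non-targeted and 7.61 ± 1.78 (SD, n = 4) in siRNA1-transfected MLTCs (log2 fold change -0.45, adjusted p = 0.0447, limma). The one that was higher with siRNA2 was *Dlk1* (0.53, adjusted p = 0.0478). Under normexp neither call passed, and the sign of *Crhr1* with siRNA1 turned. Among 9 tested probes of adult markers, members included, 1 was higher and 2 were lower with siRNA1 and 2 were lower with siRNA2. Apart from the members, the one that passed was *Lhcgr*, the luteinizing hormone receptor, which was 148 ± 4.14 (SD, n = 4) in non-targeted and 96.6 ± 15.5 (SD, n = 4) in siRNA1-transfected MLTCs (log2 fold change -0.63, adjusted p = 0.00285, limma) and 166 ± 20.5 (SD, n = 3) with siRNA2 (0.16, adjusted p = 0.471).

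Of 8 tested probes of stem and progenitor Leydig cell markers, 3 were higher with siRNA1 and 4 with siRNA2, and none was lower. Apart from *Pdgfra* with siRNA2 all of these were probes of *Lifr*, the receptor for leukemia inhibitory factor, so that the count is mainly that of 1 gene. The *Lifr* probe with the smallest adjusted p rose from 14.1 ± 1.51 (SD, n = 4) in control to 28.1 ± 0.983 (SD, n = 4) with siRNA1 (log2 fold change 1.00, adjusted p = 5.56e-05, limma) and 23.2 ± 3.37 (SD, n = 3) with siRNA2 (0.72, adjusted p = 0.00123, limma). The brightest of its 4 probes missed the threshold (0.26, adjusted p = 0.0604 and 0.14, adjusted p = 0.401). With normexp and the extreme local backgrounds replaced, most of the *Lifr* calls with siRNA2 were lost.

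In the hedgehog pathway 9 of 20 probes were tested, and 1 was higher and 1 lower with siRNA1 and 1 higher (*Dhh*) and 2 lower (*Cdon* and *Smo*) with siRNA2. *Cdon*, a co-receptor that binds hedgehog ligands, fell with both siRNAs, from 7.0 ± 0.564 (SD, n = 4) in control to 2.37 ± 0.178 (SD, n = 4) with siRNA1 (log2 fold change -1.56, adjusted p = 1.84e-06, limma) and 4.08 ± 0.422 (SD, n = 3) with siRNA2 (-0.78, adjusted p = 0.000434, limma). Under normexp both signs of *Cdon* turned and neither call passed. The probe that was higher with siRNA1 was 1 of the 2 of *Disp1*, which serves ligand release (0.40, adjusted p = 0.0423, against -0.16, adjusted p = 0.267, by the other). *Gli1*, the target gene that is most used to read the pathway, was dim and gave -0.26 (adjusted p = 0.135) and -0.15 (adjusted p = 0.502). Of the PDGF ligands and receptors 3 of 10 probes were tested, of which *Pdgfra* gave the smallest adjusted p, and *Pdgfrb* was not well above background on any array.

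In the prolactin receptor pathway 11 of 11 probes were tested, and 3 were higher and 1 lower with siRNA1 and 2 higher and 2 lower with siRNA2. *Stat5b*, the transcription factor that the receptor activates by Jak2, was higher with both siRNAs by its brighter probe, 696 ± 23.8 (SD, n = 4) in control against 1037 ± 94.0 (SD, n = 4) with siRNA1 (log2 fold change 0.57, adjusted p = 0.000473, limma) and 894 ± 38.9 (SD, n = 3) with siRNA2 (0.36, adjusted p = 0.0158, limma). By its dimmer probe it passed with siRNA1 (0.44, adjusted p = 0.00789) and not with siRNA2 (0.033, adjusted p = 0.891). *Socs2*, a target gene and inhibitor of the pathway, was lower with both, 191.5 ± 18.0 (SD, n = 4) against 137 ± 9.03 (SD, n = 4) and 133 ± 3.50 (SD, n = 3), with log2 fold changes of -0.48 (adjusted p = 0.00185) and -0.52 (adjusted p = 0.00277, limma). *Prlr* itself passed with siRNA1 and not with siRNA2.

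**Figure D4:**
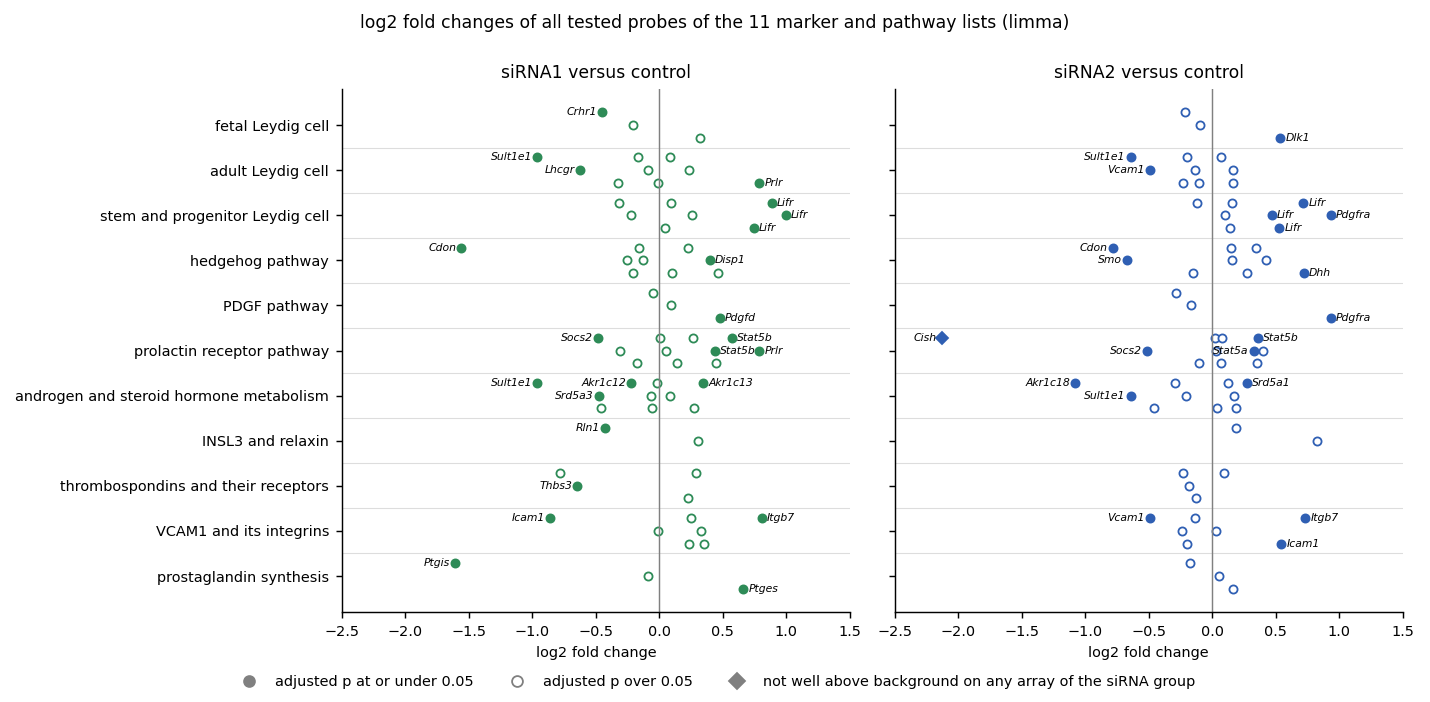
log2 fold change (x axis) of all tested probes of the 11 marker and pathway lists (rows), members included, for each siRNA against control. Filled markers passed the test and carry the gene symbol, and the diamond was not well above background on any array of that siRNA group. The diamond is drawn at its fitted value and not at a bound. *Sult1e1*, *Cdon* and *Socs2* lie to the left and *Lifr*, *Stat5b* and *Itgb7* to the right in both panels, while *Icam1* lies on opposite sides.

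Of the androgen and steroid hormone enzymes, with 10 tested probes and the members *Srd5a1*, *Akr1c14* and *Sult1e1* included, 1 probe was higher and 3 lower with siRNA1 and 1 higher (*Srd5a1*) and 2 lower (*Sult1e1* and *Akr1c18*) with siRNA2. The smallest adjusted p was that of *Akr1c18*, the 20α-hydroxysteroid dehydrogenase that inactivates progesterone, which fell from 13.9 ± 0.831 (SD, n = 4) in control to 6.57 ± 0.403 (SD, n = 3) with siRNA2 (log2 fold change -1.08, adjusted p = 6.99e-05, limma) and was 13.4 ± 1.72 (SD, n = 4) with siRNA1 (-0.062, adjusted p = 0.697). Apart from *Sult1e1*, the probes that passed with siRNA1 were those of *Akr1c13* (0.35, adjusted p = 0.0449), *Akr1c12* (-0.22, adjusted p = 0.0403) and 1 of 2 of *Srd5a3* (-0.48, adjusted p = 0.00251). Beside *Insl3*, the relaxin gene *Rln1* was 62.9 ± 5.47 (SD, n = 4) in control and 46.5 ± 1.43 (SD, n = 4) with siRNA1 (-0.43, adjusted p = 0.00405, limma). The INSL3 receptor gene *Rxfp2* was well above background on 1 array only.

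Of the thrombospondins and their receptors 4 of 10 probes were tested, and *Thbs3* fell with siRNA1 (from 11.9 ± 2.46 to 7.48 ± 0.601, SD, n = 4 each, log2 fold change -0.65, adjusted p = 0.0143, limma). Among *Vcam1*, its integrin partners and the related *Icam1*, with 7 tested probes, 1 was higher and 1 lower with siRNA1 and 2 were higher and 1 lower with siRNA2. *Itgb7*, an integrin chain that pairs with Itga4 to bind Vcam1, was higher with both siRNAs (36.3 ± 3.90 in control, n = 4, against 63.4 ± 7.16, n = 4, and 60.3 ± 8.15, n = 3, mean ± SD), with log2 fold changes of 0.81 (adjusted p = 0.000493) and 0.73 (adjusted p = 0.00218, limma). *Icam1* moved in opposite directions, from 31.2 ± 1.83 (SD, n = 4) to 17.2 ± 1.05 (SD, n = 4) with siRNA1 (-0.86, adjusted p = 1.72e-05) and to 45.5 ± 1.02 (SD, n = 3) with siRNA2 (0.54, adjusted p = 0.000956, limma). In prostaglandin synthesis 3 of 11 probes were tested, and *Ptgis*, the prostacyclin synthase, fell with siRNA1 from 13.1 ± 0.279 (SD, n = 4) to 4.32 ± 0.436 (SD, n = 4), a log2 fold change of -1.61 (adjusted p = 1.55e-06, limma). With siRNA2 *Ptgis* was 13.6 ± 1.54 (SD, n = 3, 0.050, adjusted p = 0.816). Under normexp no call of this paragraph passed. The signs of *Thbs3*, *Icam1* and *Ptgis* with siRNA1 turned there, while that of *Icam1* with siRNA2 did not.

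The genes whose log2 signal ran most like that of each member over the 11 arrays were also found, among 16128 probes of other genes above background on all arrays. These correlations are descriptions over arrays that share their groups and slides. The highest was 0.985 between *Sult1e1* and *Lss*, the lanosterol synthase of cholesterol synthesis, followed for this member by *Luc7l3* (0.978). *Prlr* ran with *Ankrd27* and *Lipt2* (0.982 each), the brighter *Vcam1* probe with *Mfsd9* (0.984) and *Yae1d1* (0.975), and *Pdgfra* with *Pde7a* (0.979) and *Atp10a* (0.972). *Insl3* ran with *Tln1* (0.974) and *Telo2* (0.973), *Akr1c14* with 4930503L19Rik (0.973) and *Mapk8* (0.969), and *Srd5a1* with *Elmo2* (0.964) and *Tgfbr1* (0.961). *Ptch1* ran with *Osbpl9* (0.954) and *Tmem26* (0.915), and *Ptgds* with *Ccdc157* (0.861) and *Ccdc12* (0.847), the least of the members.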

How the data were processed

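RNA of 11 MLTC-1 samples was hybridized to single-color Agilent arrays (Cy3). The authors deposited the scanner output of each array, extracted with Agilent Feature Extraction 9.5, and the intensity used here is its processed signal, background-subtracted per the file headers. The deposited table of group averages holds none of the members and was not used. Control spots and outlier-flagged spots were left out. The log2 intensity was centered on the 75th percentile of each array, and spots of a probe were averaged. A probe counted as well above background where over 50% of its spots carried that flag, and was tested where this held for all arrays of any group. Contrasts of 3 groups in 1 fit were tested with limma 3.58.1 (R 4.3.3), with Benjamini-Hochberg adjustment over 24248 probes and a threshold of 0.05. SE and 95% CI come from this fit. For a probe below background on all arrays of a group the text gives the fold only as a bound. The test still used its values as measured.

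Accessions were named by RefSeq symbols, which gave 24375 of 41174 probes a symbol. The members and lists were chosen with earlier results of these data known. The text names all members, list genes that passed with both siRNAs in the same direction, the gene with the smallest adjusted p of each list, and the 2 genes most like each member by Pearson correlation. Other names were added as checks or after their values were seen. The scripts were tested on simulated data. Precision is limited by the number of arrays. Alternatives were another background correction, normalization, dim-probe filter, outlier handling, blocks for slide or replicate number, 2-group fits, an unpaired Student's t-test, a fold threshold, and each array left out.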

Additional observations from a re-analysis of the deposited data

Results flagged for a closer look

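For 4 member probes the changes with the siRNAs differed from each other by the test of the difference itself. *Prlr* was higher with siRNA1 than with siRNA2 by a log2 difference of 0.719 (adjusted p = 0.000114, limma), and each of the 4 siRNA1 arrays was above each of the 3 siRNA2 arrays. The brighter *Vcam1* probe was higher by 0.482 (adjusted p = 0.00174), *Srd5a1* lower by a difference of -0.335 (adjusted p = 0.01) and *Pdgfra* lower by a difference of -0.841 (adjusted p = 0.000809, limma), again with no overlap of the arrays. The *Srd5a1* difference missed the threshold under median scaling (adjusted p = 0.113) and without siRNA2 array 2 (adjusted p = 0.0507). No single array stood apart from the rest of its group by Dixon's test in the 20 groups of 4 arrays that were examined, where chance alone flags about 1 in 20.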

How the results depend on the processing

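*Sult1e1* and *Prlr* with siRNA1, and *Sult1e1*, *Vcam1* and *Pdgfra* with siRNA2, passed the test under every alternative but normexp and the 2-fold minimum, although *Pdgfra* was 0.322 instead of 0.934 with the extreme backgrounds replaced. With plain normexp 0 member probes passed in each comparison, and of all probes 381, 123 and 81 passed (siRNA1, siRNA2 and their difference) instead of 6553, 4472 and 5709, the median of all probes moved from -0.048, -0.008 and -0.043 to 0.215, 0.172 and 0.105, and with siRNA1 111 of the calls were higher and 270 lower, beside 2858 and 3695. When the 43 local backgrounds over 20 units above their array's median were replaced by that median, an alternative added after the data were seen, 2, 5 and 5 member probes and 7367, 3748 and 5420 of all probes passed, with a split of 2415 higher and 4952 lower for siRNA1. A 2-fold minimum left 0 member probes in each comparison, and 726, 545 and 814 of all probes. By an unpaired Student's t-test, 2, 6 and 6 member probes and 8742, 6690 and 7608 of all probes passed at a threshold of 0.05. After Benjamini-Hochberg adjustment 2, 4 and 4 and 5617, 2850 and 4039 passed. The study's methods name this test beside another, without saying which served the arrays. The study's array lists also required a fold limit with both siRNAs, which was not set here.

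Signs turned under normexp for *Insl3* (-0.041), *Ptgds* (0.807), the dimmer *Vcam1* probe (-0.0149) and *Sult1e1* (0.299) with siRNA1, *Sult1e1* (0.189) and *Prlr* (-0.0433) with siRNA2, and for the differences between the siRNAs of *Ptgds* (0.209), *Sult1e1* (0.109), *Pdgfra* (0.0293) and *Ptch1* (0.215). Signs of uncalled values turned with the extreme backgrounds replaced for *Ptgds* with siRNA2 (-0.0113) and for *Srd5a1* (0.0147), *Vcam1* (0.0477), *Pdgfra* (-0.112) and *Ptch1* (-0.157) with siRNA1, under quantile normalization for *Srd5a1* (0.023) and *Vcam1* (0.0738) and under median scaling for *Vcam1* (0.0342) with siRNA1. Same-numbered arrays of different groups correlated in their deviations with a median of 0.3, with 3 of 10 pairs under 0.1, beside -0.1 for different numbers. Arrays on the same slide also had a median of 0.3, and many same-numbered arrays shared a slide. Whether the numbers pair the samples can therefore not be told from these values. With the replicate number as a block 7 member probes (6 genes) instead of 4 and 7493 of all probes instead of 5709 differed between the siRNAs, and *Akr1c14* with siRNA2 was -0.0142. *Insl3* with siRNA2 passed under 7 of 22 alternatives (adjusted p = 0.00239 to 0.738 over all of them), and *Ptch1* with siRNA2 under quantile normalization (adjusted p = 0.0376) and without siRNA1 array 4 (0.0286) or siRNA2 array 1 (0.046). List probes that passed, members included, were 30 with siRNA1 and 21 with siRNA2. None of them changed sign under quantile normalization, median scaling or the slide block, or with the extreme backgrounds replaced. Under plain normexp only 2 of the 30 and 0 of the 21 still passed. Signs turned there for 9 with siRNA1 (*Cdon*, *Sult1e1*, *Ptgis*, *Icam1*, *Thbs3*, *Crhr1*, *Ddx4*, *Des* and *Acta2*). With siRNA2 they turned for 4 (*Cdon*, *Sult1e1*, *Cish* and *Smo*). Calls lost under median scaling were *Akr1c12* and *Disp1* with siRNA1 and *Srd5a1*, *Stat5b*, *Dlk1* and *Stat5a* with siRNA2. With the extreme backgrounds replaced, the calls of *Akr1c12*, *Disp1* and *Akr1c13* were lost with siRNA1. With siRNA2 19 of 21 calls were kept there, and those lost were of *Lifr*. *Akr1c12* was also lost under quantile normalization and *Akr1c13* with the slide block, both with siRNA1.

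When each array was left out in turn, the counts were 2 to 2 with siRNA1, 3 to 6 with siRNA2 and 3 to 5 between the siRNAs. Ranges that crossed 0 were those of *Ptgds* (-0.24 to 0.0218) and *Vcam1* (-0.0495 to 0.022) with siRNA1, of *Akr1c14* with siRNA2 (-0.0531 to 0.332), and of its difference (-0.0613 to 0.324). The causes were not tested. The number of arrays limits the precision, and the probes of *Thbs2* and the dimmer *Pdgfra* probe were too close to background to be tested.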

Other observations

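Some list genes outside the naming rule were picked after their values were seen. In the hedgehog pathway, the ligand gene *Dhh* was 267 ± 14.2 (SD, n = 4) in control and 441 ± 45.4 (SD, n = 3) with siRNA2 (log2 fold change 0.72, adjusted p = 0.00103, limma), and -0.13 (adjusted p = 0.399) with siRNA1. The signal transducer *Smo* fell with siRNA2 by -0.67 (adjusted p = 0.00134, limma), a sign that turned under normexp. In the prolactin pathway, the target gene and inhibitor *Cish* was well above background on all arrays of non-targeted and siRNA1-transfected MLTCs and on 0 of 3 siRNA2 arrays. By the processed signal it was at least 3.47-fold lower with siRNA2 than in control. This bound was taken against the lowest signal well above background on each array. The test (adjusted p = 7.89e-05, limma) used the values as measured, those below background included, and not the bound. Under normexp the sign of *Cish* with siRNA2 turned and the call was lost. *Stat5a* was higher with siRNA2 (0.33, adjusted p = 0.00766, limma).

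*Ptges*, a prostaglandin E synthase, was higher with siRNA1 (0.66, adjusted p = 0.000291, limma), and its difference between the siRNAs was 0.84 (adjusted p = 0.000109). The PDGF ligand gene *Pdgfd* was also higher with siRNA1 (0.48, adjusted p = 0.012). Of the markers of steroidogenic cells, *Cyp17a1* was lower with both siRNAs (-0.92, adjusted p = 0.000216 and -0.48, adjusted p = 0.0237, limma). Of the 9 probes of this list 0 were higher and 3 lower with siRNA1, beside 15.2% lower of all tested probes. The other 2 were *Lhcgr* and *Scarb1* (-0.58, adjusted p = 0.0191, limma). With siRNA2 0 were higher and 1 lower, beside 10.7% lower of all.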
